A study of Mus musculus with 6 samples.

Results

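The genes described here are 33 genes of DNA replication and cell division, taken by name from the deposited table of 30777 genes for mouse colon. The list was given by gene name, with no rule on measured values, though it was chosen with earlier results of these data known. All 33 were found once in the table, and all 33 passed the filter on low counts that left 20101 genes for testing. RNA was sequenced from whole colon tissue of BALB/c mice, an inbred laboratory strain, in 6 libraries. One group of 3 had received 5-fluorouracil (5-Fu), a chemotherapy drug that blocks thymidylate synthesis and so DNA replication, and the other group of 3 had received both this drug and the plant alkaloid berberine (5-Fu+BBR). Both groups therefore carried 5-fluorouracil, and no library of colon without it was analysed here. Dose, schedule, age and sex are not given in the labels, nor is whether each library is 1 animal, so p-values measure the spread between these samples, which may be technical.

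Before a cell divides, the ORC, Cdc6 and Cdt1 proteins load the MCM helicase onto origins of replication, cyclin E and cyclin A with their kinases start DNA synthesis, and Pcna holds the polymerases on the template. Cyclin B with Cdk1 then drives entry into mitosis, the spindle checkpoint delays separation until chromosomes are attached, and the anaphase-promoting complex ends mitosis by marking cyclins and other proteins for destruction. In the colon these genes are expressed mainly in the dividing cells of the lower crypt, and also in dividing lymphocytes. Their transcription is known to depend on E2F factors for replication genes and on the DREAM and MuvB complexes, NF-Y and B-Myb for mitotic genes. Libraries of whole tissue do not separate fewer cells of a type from less RNA per cell.

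Levels are FPKM values, which correct for the length of the transcript and for sequencing depth and so can be compared between genes; they are listed in the order of libraries 1, 2 and 3. Fold changes are on the log2 scale, 5-Fu+BBR minus 5-Fu, ± SE, from edgeR's quasi-likelihood test on the deposited estimated counts, adjusted over all genes tested. The counts summed to between 53824752 and 63831168 per library. Defining markers of colon epithelium, among them Cdx2, Krt20, Car1 and Muc2, were above 0 in every library for 15 of 15 genes. Some libraries stood apart in other genes. The summed level of 7 kidney genes was 15.6, 15.8 and 18 FPKM in 5-Fu and 15.5, 149 and 142 FPKM in 5-Fu+BBR, so 5-Fu+BBR libraries 2 and 3 were high. Most of this sum was Kap, at 11.5, 133 and 127 FPKM in 5-Fu+BBR. Of the 7 genes, 6 had positive log2 fold changes, and Nphs1 had a negative one (-0.51). Erythroid genes were highest in 5-Fu+BBR library 3, S100a8 of neutrophils was high in 5-Fu libraries 1 and 2, and lymphocyte genes were lowest in 5-Fu library 1, with values given beside the members' library differences. In the cell cycle genes themselves, 5-Fu library 3 was the low library.

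The promoters of 4 members are shown because they carry the letters recognised by the known regulators of replication and mitotic genes, 1 for each arrangement: E2F letters with CCAAT (Mcm6), E2F letters alone (Cdc6), all of them (Cdk1), and CCAAT with a cell cycle homology element (Cdc20). Each line is the 150 bases before the RefSeq transcription start in GRCm38.p6, 5′ to 3′ on the gene's strand. Capitals mark E2F letters (TTTCCCGC, TTTGGCGC, TTTGCCGC or TTTCGCGC), the cell cycle homology element (TTTGAA) and the NF-Y letters (CCAAT), on either strand. They are Mcm6 (chr1:128359706-128359855, minus strand), Cdc6 (chr11:98908001-98908150, plus strand), Cdk1 (chr10:69352913-69353062, minus strand) and Cdc20 (chr4:118437344-118437493, minus strand).
Mcm6: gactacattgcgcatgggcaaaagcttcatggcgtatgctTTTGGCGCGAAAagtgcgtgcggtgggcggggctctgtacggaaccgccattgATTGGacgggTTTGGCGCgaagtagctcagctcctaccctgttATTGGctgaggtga
Cdc6: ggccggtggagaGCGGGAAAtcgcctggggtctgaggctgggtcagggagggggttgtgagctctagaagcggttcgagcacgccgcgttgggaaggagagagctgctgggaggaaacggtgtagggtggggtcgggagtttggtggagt
Cdk1: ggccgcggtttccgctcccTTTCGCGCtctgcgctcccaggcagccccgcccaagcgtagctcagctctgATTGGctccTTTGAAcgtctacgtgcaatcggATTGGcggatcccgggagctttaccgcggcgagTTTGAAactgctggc
Cdc20: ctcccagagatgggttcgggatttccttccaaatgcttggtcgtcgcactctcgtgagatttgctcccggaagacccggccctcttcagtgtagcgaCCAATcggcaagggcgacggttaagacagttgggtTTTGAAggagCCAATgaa
The window of Mcm6 holds 3 E2F matches, 2 of them overlapping in 1 run of capitals that begins 110 bases before the start. A window was found for 26 of the 33 members. Over the 250 bases before the start, CCAAT was present in 21 of the 26 (80.8%) and in 33.8% of all 32851 windows. TTTGAA was present in 8 (30.8%) against 16% of all windows, and the E2F letters in 5 (19.2%) against 1.86%. The 5 with E2F letters were the licensing and helicase genes Mcm5, Mcm6, Mcm7 and Cdc6, and Cdk1. The 8 with TTTGAA were Mki67, Top2a, Mcm2, Ccnb2, Cdk1, Cdc20, Ube2c and Kif11. In the printed stretches no match of one motif overlapped that of another, and a match describes letters only.

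No member passed the test between 5-Fu+BBR and 5-Fu. At an adjusted p under 0.05 by edgeR, 0 of the 33 were higher, where 0.0597% of all genes tested were, and 0 were lower, where 0.0149% were. At an unadjusted p under 0.05 the members again numbered 0 in either direction, against 9.48% of genes higher and 6.08% lower. DESeq2, limma-voom and limma on log2 FPKM also gave 0 members at either threshold and in either direction. DESeq2 called 4.35% of genes higher and 1.42% lower at an adjusted p under 0.05, and 7.15% and 4.37% at an unadjusted one. The corresponding shares were 0.0846%, 0.0199%, 10.1% and 6.12% with limma-voom, and 0.135%, 0.0225%, 8.87% and 6.34% with limma on log2 FPKM. The FPKM of the groups separated for 0 members, against 11.5% of genes higher and 8.47% lower in 5-Fu+BBR. By deposited FPKM, without the TMM scaling used in the tests, all 3 libraries of 5-Fu+BBR lay inside the 5-Fu range for 30 of the 33.

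The estimates themselves were mostly below 0. Of the 33 members, 31 had a negative log2 fold change, the median was -0.18 against 0.0051 over all genes tested, and the range was from -0.54 for Ccnb1 to 0.33 for Gins2. Members share cells and libraries, so these counts are descriptions and not a test. All 33 of the 95% intervals include 0. They reach below -1, a 2-fold lower level in 5-Fu+BBR, for 6 genes (Ccna2, Ccnb1, Bub1b, Cdc20, Birc5 and Kif11) and above 1 for Gins2. A 2-fold difference is thus outside the interval of the others.

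**Figure D1:**
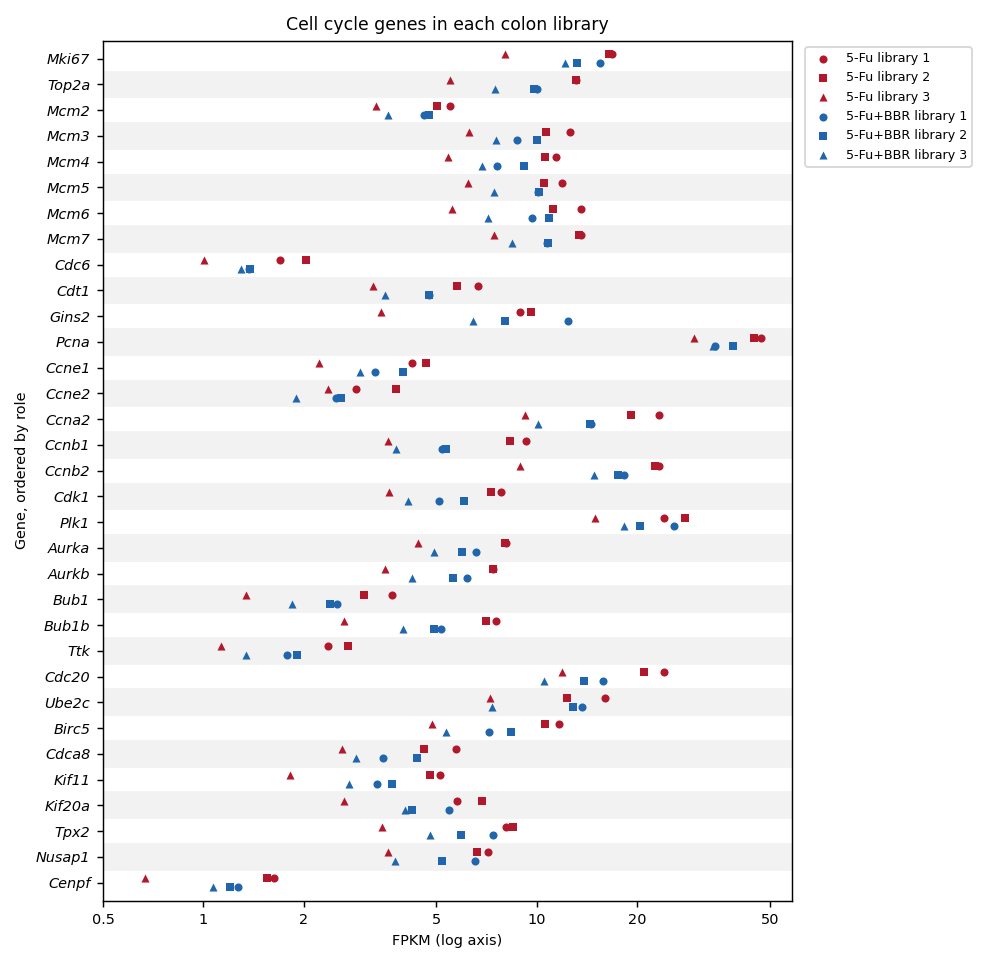
FPKM (log axis) of the 33 genes, ordered by role, in each of the 6 libraries, with colour for the group and the marker's shape for the library number. The triangle of 5-Fu library 3 is the leftmost point for 31 of the 33 genes, and the 5-Fu+BBR points lie between the 5-Fu extremes for 30.

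The members varied widely within the groups. In 5-Fu, library 3 was the lowest of the 3 for 33 of 33 members, against 50.3% of all genes tested. It was the lowest of all 6 libraries for 31, against 28.5% of all genes, the exceptions being Ccne2 and Cdc20, which were lowest in 5-Fu+BBR library 3. In 5-Fu+BBR, library 3 was the lowest of the 3 for 33 of 33 members, against 31.5% of all genes tested. Both held together for all 33 members and for 18.6% of all genes. The highest of the 6 libraries was 5-Fu library 1 for 24 members, 5-Fu library 2 for 8 and 5-Fu+BBR library 1 for Gins2. These ranks are of deposited FPKM, without the TMM scaling used in the tests. Its factors were 0.941 for 5-Fu library 3 and 1.03 for 5-Fu+BBR library 3, so scaling would raise the first against the second. The order of these libraries is therefore not settled where their values were close, as in Ube2c.

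The distance between the highest and the lowest 5-Fu library ran from 1.59-fold for Pcna to 2.86-fold for Bub1b, with a median of 2.16-fold. In 5-Fu+BBR it ran from 1.07-fold for Cdc6 to 1.92-fold for Gins2, with a median of 1.36-fold, and it was smaller than in 5-Fu for 33 of 33 members. The SD of log2 CPM, which is the count relative to library size after TMM scaling, had a median over members of 0.52 in 5-Fu and 0.27 in 5-Fu+BBR. Over all genes tested these medians were 0.27 and 0.22. The SD was larger in 5-Fu for 32 of 33 members, all but Ccne2, and for 58.9% of all genes. Between 5-Fu libraries 1 and 2 alone the levels differed by a median of 1.1-fold, and by 1.31-fold at most (Ccne2).

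**Figure D2:**
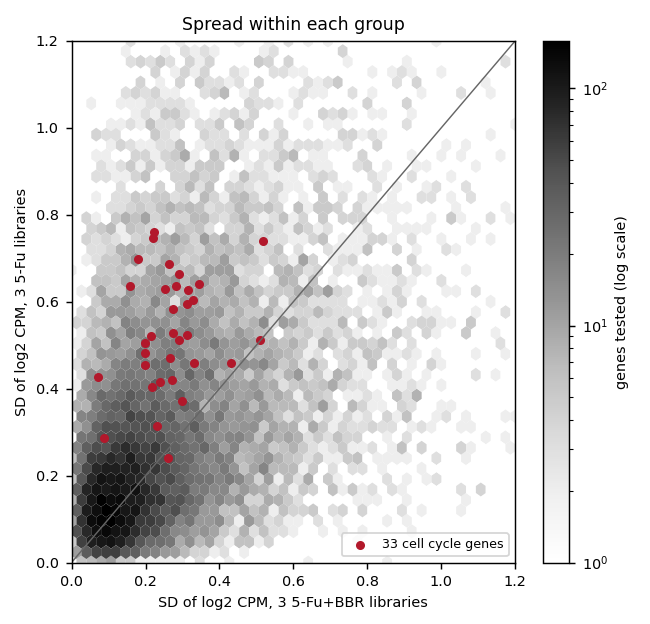
SD of log2 CPM over the 3 libraries of 5-Fu (vertical) against that over the 3 libraries of 5-Fu+BBR (horizontal), with the density of all genes tested in grey, the 33 cell cycle genes in red and a line of equal SD; genes with an SD above 1.2 are not shown. The red points lie above the line for 32 genes, with medians of 0.52 and 0.27.

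Mki67 encodes the Ki-67 protein that coats mitotic chromosomes and is the usual marker of dividing cells (chromosome 7, 135689784 to 135716361 of GRCm38). Its level in libraries 1 to 3 was 16.8, 16.5 and 8.02 FPKM in 5-Fu and 15.5, 13.2 and 12.2 FPKM in 5-Fu+BBR. The 5-Fu+BBR libraries all lay between 5-Fu library 3 and the other 5-Fu libraries, and the group means were 13.8 ± 4.99 and 13.6 ± 1.68 FPKM (SD, n = 3 each). The log2 fold change was 0.0028 ± 0.25, with an interval of -0.57 to 0.58. Top2a, the topoisomerase that untangles replicated DNA, followed the same order of libraries within 5-Fu+BBR and was at 13.1, 13.1 and 5.51 FPKM in 5-Fu and 10, 9.82 and 7.48 FPKM in 5-Fu+BBR (log2 fold change -0.19 ± 0.30).

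The MCM helicase subunits, which unwind DNA at the replication fork, moved together from library to library. Mcm6 was at 13.5, 11.2 and 5.57 FPKM in 5-Fu and 9.7, 10.9 and 7.16 FPKM in 5-Fu+BBR. Mcm3 was at 12.6, 10.7 and 6.24 FPKM in 5-Fu and 8.7, 10 and 7.54 FPKM in 5-Fu+BBR. In both, 5-Fu library 3 was lowest, 5-Fu+BBR library 3 next, and the other 5-Fu+BBR libraries lay below the other 5-Fu libraries. Mcm4 was at 11.4, 10.6 and 5.42 FPKM in 5-Fu and 7.6, 9.17 and 6.83 FPKM in 5-Fu+BBR, and Mcm7 at 13.6, 13.4 and 7.45 FPKM in 5-Fu and 10.7, 10.8 and 8.42 FPKM in 5-Fu+BBR. Mcm5 was at 11.9, 10.5 and 6.22 FPKM in 5-Fu and 10.1, 10.2 and 7.44 FPKM in 5-Fu+BBR, and Mcm2, the least abundant subunit, at 5.48, 5.02 and 3.29 FPKM in 5-Fu and 4.58, 4.74 and 3.58 FPKM in 5-Fu+BBR. Mcm2, Mcm4, Mcm5 and Mcm7 kept the same lowest library, with 5-Fu ratios of highest to lowest between 1.67 (Mcm2) and 2.1 (Mcm4). The 6 log2 fold changes ran from -0.20 for Mcm4 to -0.037 for Mcm5, and their adjusted p values from 0.71 to 0.957.

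Of the loading factors, Cdc6 was the least abundant replication member, at 1.69, 2.03 and 1 FPKM in 5-Fu and 1.37, 1.38 and 1.3 FPKM in 5-Fu+BBR. Its 5-Fu+BBR libraries differed by no more than 1.07-fold while its 5-Fu libraries differed by 2.03-fold. Cdt1, which brings the helicase to the origin with Cdc6, was at 6.64, 5.78 and 3.23 FPKM in 5-Fu and 4.74, 4.74 and 3.51 FPKM in 5-Fu+BBR (log2 fold change -0.25 ± 0.25). Gins2, a subunit of the GINS complex that activates the helicase, had the only level in 5-Fu+BBR above all of 5-Fu, at 8.88, 9.63 and 3.41 FPKM in 5-Fu and 12.4, 8 and 6.45 FPKM in 5-Fu+BBR. Its log2 fold change of 0.33 ± 0.41 had the widest interval of the members, -0.67 to 1.32, and without 5-Fu+BBR library 1 it was -0.015.

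Pcna, the sliding clamp of the replication fork (chromosome 2, 132249162 to 132253314), was the most abundant member. Its level was 47, 44.9 and 29.5 FPKM in 5-Fu and 34.1, 38.8 and 33.8 FPKM in 5-Fu+BBR, a difference of -0.18 ± 0.15 (adjusted p = 0.607), and it had the smallest 5-Fu ratio of highest to lowest library, 1.59. The cyclins E, which start S phase with Cdk2, were low by comparison. Ccne1 was at 4.21, 4.66 and 2.23 FPKM in 5-Fu and 3.27, 3.97 and 2.96 FPKM in 5-Fu+BBR, and Ccne2 at 2.88, 3.77 and 2.36 FPKM in 5-Fu and 2.5, 2.59 and 1.89 FPKM in 5-Fu+BBR. For Ccne2 the lowest value was that of 5-Fu+BBR library 3, the one 5-Fu+BBR value of this gene outside the 5-Fu range.

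Among the cyclins of S phase and mitosis, Ccnb1 had the lowest estimate of all members. Cyclin B1 activates Cdk1 at entry into mitosis (chromosome 13, 100778650 to 100786570). Ccnb1 was at 9.26, 8.28 and 3.58 FPKM in 5-Fu and 5.2, 5.34 and 3.77 FPKM in 5-Fu+BBR, with a log2 fold change of -0.54 ± 0.32 and an adjusted p of 0.467. The 5-Fu+BBR libraries lay between 5-Fu library 3 and the other 5-Fu libraries, with library 3 again the lower. Ccnb2, the second B-type cyclin, was more abundant, at 23.3, 22.7 and 8.93 FPKM in 5-Fu and 18.3, 17.5 and 14.9 FPKM in 5-Fu+BBR, and its estimate was -0.10 ± 0.31. Ccna2, the cyclin of S phase and G2, was at 23.3, 19.1 and 9.2 FPKM in 5-Fu and 14.5, 14.4 and 10.1 FPKM in 5-Fu+BBR (-0.38 ± 0.31). Cdk1, the kinase that these cyclins activate, was at 7.79, 7.3 and 3.61 FPKM in 5-Fu and 5.1, 6.04 and 4.1 FPKM in 5-Fu+BBR (-0.28 ± 0.26). All of these had 5-Fu library 1 as the highest and 5-Fu library 3 as the lowest of the 6.

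Within 5-Fu the mitotic kinases varied less than the spindle checkpoint genes. Plk1, the polo-like kinase of spindle assembly, was at 24, 27.8 and 14.9 FPKM in 5-Fu and 25.8, 20.3 and 18.2 FPKM in 5-Fu+BBR, and its estimate was -0.033 ± 0.21. Aurka, the kinase of centrosomes, and Aurkb, the kinase of the chromosomal passenger complex, had estimates of -0.22 ± 0.22 and -0.17 ± 0.27. Aurka was at 8.1, 8 and 4.39 FPKM in 5-Fu and 6.55, 5.95 and 4.92 FPKM in 5-Fu+BBR, and Aurkb at 7.37, 7.37 and 3.51 FPKM in 5-Fu and 6.18, 5.62 and 4.21 FPKM in 5-Fu+BBR. The 5-Fu ratio of highest to lowest was 1.86, 1.84 and 2.1 for Plk1, Aurka and Aurkb. For the checkpoint kinases Bub1 and Ttk and the checkpoint protein Bub1b it was 2.74, 2.41 and 2.86. Bub1, which recruits checkpoint proteins to the kinetochore, was at 3.67, 3.03 and 1.34 FPKM in 5-Fu and 2.51, 2.4 and 1.84 FPKM in 5-Fu+BBR, and Ttk at 2.37, 2.72 and 1.13 FPKM in 5-Fu and 1.78, 1.91 and 1.34 FPKM in 5-Fu+BBR. Bub1b, the member with the largest such ratio, was at 7.54, 7.06 and 2.63 FPKM in 5-Fu and 5.15, 4.92 and 3.98 FPKM in 5-Fu+BBR, with 5-Fu library 3 below every other library.

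Cdc20 activates the anaphase-promoting complex (chromosome 4, 118432901 to 118437352) and had the smallest adjusted p of the members, 0.404. Its level was 24, 20.9 and 11.9 FPKM in 5-Fu and 15.8, 13.9 and 10.5 FPKM in 5-Fu+BBR, with group means of 18.9 ± 6.3 and 13.4 ± 2.7 FPKM (SD, n = 3 each) and a log2 fold change of -0.48 ± 0.25 (interval -1.07 to 0.10). The groups overlapped through 5-Fu library 3, which lay below 2 of the 5-Fu+BBR libraries. Ube2c, the ubiquitin-conjugating enzyme of the same complex, was at 16, 12.3 and 7.25 FPKM in 5-Fu and 13.6, 12.8 and 7.33 FPKM in 5-Fu+BBR, and its estimate was -0.061 ± 0.32. In Ube2c, library 3 of each group was low and the values of these libraries were close.

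Birc5, which encodes survivin, and Cdca8, which encodes borealin, are subunits of the chromosomal passenger complex. Birc5 was at 11.6, 10.6 and 4.86 FPKM in 5-Fu and 7.21, 8.35 and 5.33 FPKM in 5-Fu+BBR (-0.36 ± 0.30), and Cdca8 at 5.73, 4.6 and 2.6 FPKM in 5-Fu and 3.46, 4.37 and 2.87 FPKM in 5-Fu+BBR (-0.26 ± 0.26). In both, the 5-Fu+BBR libraries lay between 5-Fu library 3 and the other 5-Fu libraries. Kif11, the kinesin that pushes the spindle poles apart, was at 5.13, 4.8 and 1.82 FPKM in 5-Fu and 3.32, 3.69 and 2.73 FPKM in 5-Fu+BBR, and 5-Fu library 3 lay below all the others. Kif20a, a kinesin of cytokinesis, Tpx2, an activator of Aurora A on the spindle, and Nusap1, a spindle-binding protein, had estimates between -0.14 and -0.12. Kif20a was at 5.77, 6.86 and 2.64 FPKM in 5-Fu and 5.47, 4.22 and 4.02 FPKM in 5-Fu+BBR, Tpx2 at 8.07, 8.51 and 3.43 FPKM in 5-Fu and 7.37, 5.94 and 4.79 FPKM in 5-Fu+BBR, and Nusap1 at 7.15, 6.61 and 3.59 FPKM in 5-Fu and 6.54, 5.19 and 3.76 FPKM in 5-Fu+BBR. Their 5-Fu+BBR libraries 1, 2 and 3 all lay inside the 5-Fu range. Cenpf, a large kinetochore protein, was the least abundant of all members, at 1.63, 1.55 and 0.668 FPKM in 5-Fu and 1.27, 1.2 and 1.07 FPKM in 5-Fu+BBR.

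Leaving out 5-Fu library 3 gave the lowest median estimate over the members and the most members at an unadjusted p under 0.05. Without it, 18 of 33 members were lower in 5-Fu+BBR at an unadjusted p under 0.05, against 7.34% of all genes, and 0 were higher, against 10.6%. At an adjusted p under 0.05 there were still 0 of 33, against 0.0431% of genes lower and 0.211% higher. The median log2 fold change over members was then -0.40, and 32 of 33 estimates were negative, all but Gins2 (0.018). The lowest were those of Ccnb1 (-0.82, adjusted p = 0.105), Cdc20 (-0.69), Ccna2 (-0.65), Birc5 (-0.62) and Bub1b (-0.58), and that of Mki67 was -0.23. The 18 were Top2a, Mcm4, Mcm7, Cdt1, Pcna, Ccna2, Ccnb1, Ccnb2, Cdk1, Aurka, Bub1, Bub1b, Ttk, Cdc20, Birc5, Cdca8, Kif11 and Cenpf, so that they included replication as well as mitosis genes. As 5-Fu library 3 was the lowest 5-Fu library for 33 of 33 members, leaving it out lowers their estimates and narrows the 5-Fu spread. Members also share cells and libraries, so the 18 are a description and not a test.

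Without 5-Fu+BBR library 1 all 33 estimates were negative and Cdc20 was the 1 member with an unadjusted p under 0.05, where 5.64% of genes were lower and 8.27% higher. Leaving out any of the other 4 libraries gave 0 members in either direction, against 3.07% to 5.64% of genes lower and 5.7% to 9.98% higher. Without 5-Fu library 1 the median was -0.0036, with 13 estimates positive and 20 negative, and the sign of 11 members changed, against 1 without 5-Fu library 3. The median stayed below 0 in all 6 cases, between that value and -0.40, the value without 5-Fu library 3. Against 5-Fu, 5-Fu+BBR library 1 alone, the one 5-Fu+BBR library without raised kidney transcripts, gave a median of -0.046 with 12 members positive, 21 negative and 0 at an unadjusted p under 0.05. Over all genes this comparison called 3.56% higher and 2.55% lower at that threshold. With 1 library in 1 arm, the spread came from the 5-Fu libraries alone and the lone library was assumed to vary as they did, so these counts say little and the estimates are the values to read.

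**Figure D3:**
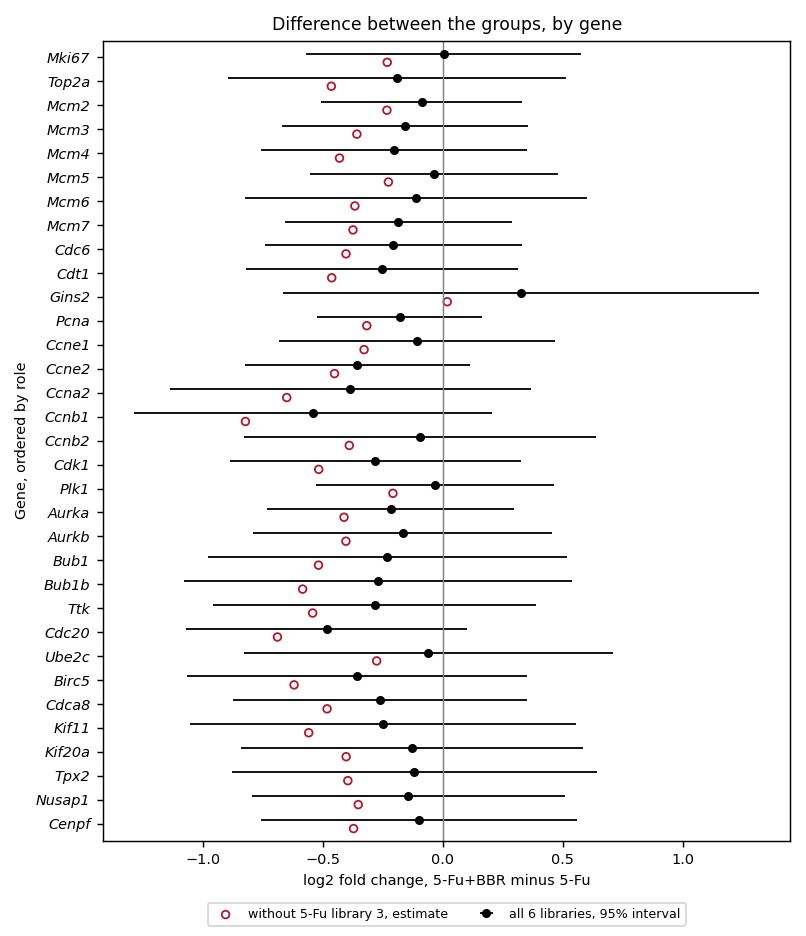
Log2 fold change of each of the 33 genes, 5-Fu+BBR minus 5-Fu, with its 95% interval over all 6 libraries (black), and the estimate without 5-Fu library 3 (open red circles, drawn with no interval). Every black interval includes 0, and every red circle but that of Gins2 is below 0.

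The spread between libraries was wider over the mitosis members than over the replication members. The median of log2 CPM relative to each gene's mean over the 6 libraries was 0.36, 0.20 and -0.42 in 5-Fu and 0.085, 0.058 and -0.30 in 5-Fu+BBR for the 10 genes of the helicase, its loading and the clamp. For the 19 genes of the S, G2 and M cyclins, kinases, checkpoint, spindle and passenger complex it was 0.51, 0.33 and -0.54 in 5-Fu and 0.14, -0.022 and -0.40 in 5-Fu+BBR. The order of libraries in 5-Fu was the same in the 2 sets and the distance between the highest and lowest 5-Fu library was 0.78 against 1.04 on the log2 scale. That difference was not tested.

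Other cell cycle genes, 191 in 9 lists chosen by function, were read from the same fit. All 191 were tested, and 147 had negative and 44 positive log2 fold changes with a median of -0.12. At an adjusted p under 0.05, 1 was lower, against 0.0149% of all genes tested, and 0 were higher, against 0.0597%. At an unadjusted p under 0.05, 6 were lower, against 6.08% of all genes, and 1 was higher, against 9.48%. Of the 191, 5-Fu library 3 was the lowest 5-Fu library for 177 (92.7%), against 50.3% of all genes. In 5-Fu+BBR, library 3 was the lowest for 111 (58.1%), against 31.5% of all genes. The low level of 5-Fu library 3 was found in most of the wider set.

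Genes of the spindle and the kinetochore act beside the mitosis members. The 28 genes of spindle, kinesins and cytokinesis had 26 negative and 2 positive estimates (median -0.19), and 0 passed or had an unadjusted p under 0.05. Their library medians were 0.38, 0.47 and -0.60 in 5-Fu and 0.19, -0.05 and -0.47 in 5-Fu+BBR. Melk, a kinase of dividing cells, had the smallest p and was at 8.36, 9.06 and 4.45 FPKM in 5-Fu and 5.85, 5.73 and 4.44 FPKM in 5-Fu+BBR (adjusted p = 0.423). The 33 kinetochore and centromere genes had 29 negative and 4 positive estimates (median -0.12), again with 0 at either threshold, and 5-Fu library 3 was the lowest 5-Fu library for all 33. Bub3 and Mad1l1, which act in the spindle checkpoint with the members Bub1 and Bub1b, had the smallest p (-0.21 ± 0.13 and -0.33 ± 0.23).

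Replication genes outside the list also gave no call. Of 24 genes of origin recognition, firing and fork protection, 18 had negative and 6 positive estimates (median -0.073), and of 28 genes of polymerases, the clamp loader and maturation, 20 were negative and 8 positive (median -0.054). In both lists 0 genes had an unadjusted p under 0.05. Gmnn, the geminin inhibitor of Cdt1, was at 15.3, 13.7 and 12.1 FPKM in 5-Fu and 10.3, 11.5 and 12.6 FPKM in 5-Fu+BBR, and Orc1, the large subunit of the origin recognition complex, at 2.29, 2.07 and 1.02 FPKM in 5-Fu and 1.08, 1.58 and 0.778 FPKM in 5-Fu+BBR. Prim2, a primase subunit (-0.48 ± 0.24), and Rfc2, a clamp loader subunit (0.24 ± 0.12), had the smallest p in the second list. The 19 genes of condensin, cohesin and separase had 17 negative and 2 positive estimates, 0 at an unadjusted p under 0.05 and Wapl (-0.20 ± 0.10) and Smc3 (-0.19 ± 0.13) with the smallest p.

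The 28 regulators of mitotic entry and exit included 3 genes with an unadjusted p under 0.05 and 0 that passed. All 3 were lower in 5-Fu+BBR, as were 6.08% of all genes tested at that threshold. Cdc25a is the phosphatase that activates Cdk2 and Cdk1. It was at 6.29, 6.64 and 5.24 FPKM in 5-Fu and 4.69, 4.5 and 4.37 FPKM in 5-Fu+BBR, and the groups did not overlap (log2 fold change -0.42 ± 0.10, adjusted p = 0.146). Lin54, the DNA-binding subunit of the MuvB complex that binds the cell cycle homology element, was at 5.18, 4.94 and 3.6 FPKM in 5-Fu and 3.61, 3.14 and 2.44 FPKM in 5-Fu+BBR (-0.57 ± 0.18, adjusted p = 0.221). Fzr1, the second activator of the anaphase-promoting complex, was the remaining one, named after its values were seen (-0.25 ± 0.11).

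The 11 G1 cyclins and kinases had a median of -0.041 with 4 positive and 7 negative estimates. Cdk6, the kinase partner of D-type cyclins, was higher in every 5-Fu+BBR library, at 1.03, 1.24 and 1.13 FPKM in 5-Fu and 1.32, 1.56 and 1.67 FPKM in 5-Fu+BBR (0.41 ± 0.13, adjusted p = 0.221), and did not pass. Fbxw7, the ubiquitin ligase subunit that removes cyclin E, had the next smallest p (0.28 ± 0.15). The 10 CDK inhibitors and pocket proteins did not show the order of libraries seen in the members, and 5-Fu library 3 had the highest list median, 0.15. Cdkn1c, which encodes the CDK inhibitor p57, was lower in every 5-Fu+BBR library, at 2.85, 2.14 and 1.82 FPKM in 5-Fu and 1.24, 1.31 and 1.14 FPKM in 5-Fu+BBR (-0.87 ± 0.24, adjusted p = 0.173). Cdkn2a was at 0.257, 0.376 and 0.261 FPKM in 5-Fu and 0.178, 0.0768 and 0.113 FPKM in 5-Fu+BBR, a low level, and also did not pass (adjusted p = 0.37). Cdkn1a, the p53-induced inhibitor p21, named after its values were seen, was at 71.4, 60.5 and 64.6 FPKM in 5-Fu and 69.6, 57.3 and 65.1 FPKM in 5-Fu+BBR, with 5-Fu library 3 between the others.

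The one gene of these lists that passed was E2f2, an activating E2F factor, which was at 11.7, 11.4 and 8.54 FPKM in 5-Fu and 4.72, 5.12 and 5.39 FPKM in 5-Fu+BBR and fell by 1.05 ± 0.12 on the log2 scale (adjusted p = 0.0318). The call was lost, with adjusted p values of 0.137, 0.0519, 0.279 and 0.0652, without 5-Fu library 1 and without 5-Fu+BBR libraries 1, 2 and 3 in turn, and with limma on log2 FPKM (0.0809). Tfdp2, a dimer partner of E2F factors, had the next smallest p (-0.49 ± 0.11, adjusted p = 0.124).

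**Figure D4:**
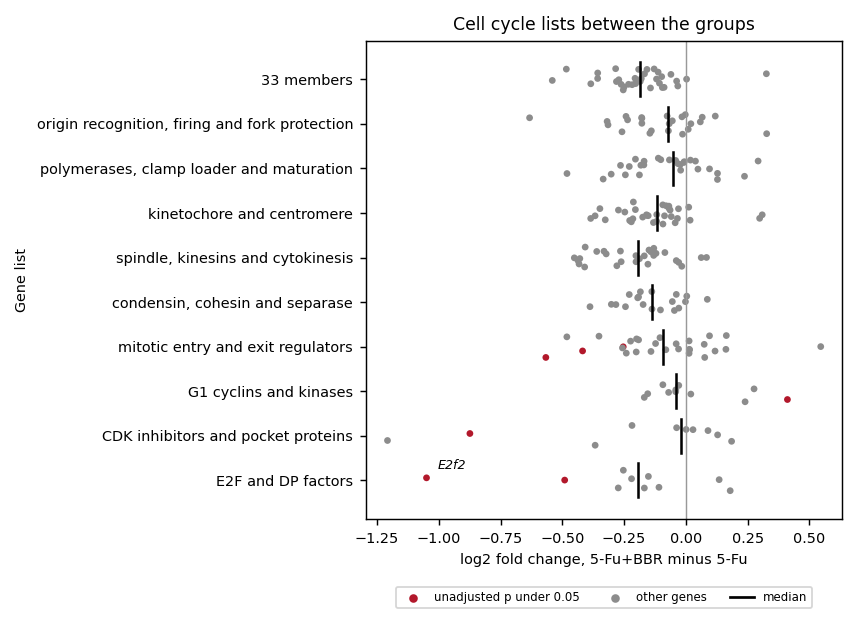
Log2 fold change, 5-Fu+BBR minus 5-Fu, of each gene in the 33 members and in the 9 other cell cycle lists, with a black bar at the list's median and red for an unadjusted p under 0.05. No member is red, and E2f2, at -1.05, is the only gene of these lists that passed over all genes.

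Measures of other cells and of the libraries moved with the members in part. The summed level of 11 crypt base and progenitor genes was 63.5, 66.3 and 46.4 FPKM in 5-Fu and 56.7, 60.7 and 50.8 FPKM in 5-Fu+BBR, lowest in library 3 of each group. Slc12a2, a chloride cotransporter of crypt cells, was the most abundant of them, at 28.9, 31.9 and 17.1 FPKM in 5-Fu, and made up most of the lower sum of 5-Fu library 3. Gene by gene, 5-Fu library 3 was the lowest 5-Fu library for 6 of the 11 (54.5%), near the 50.3% of all genes, and Ascl2, Axin2 and Sox9 were not lowest in library 3 of either group. Lgr5 was at 0.238 FPKM in 5-Fu library 3 and 0.283 FPKM in 5-Fu+BBR library 3, and 0 of the 11 genes were at 0. Between the groups, 7 of the 11 had positive and 4 negative log2 fold changes, with a median of 0.28 where that of the members was -0.18. Of the 11, 0 passed at an adjusted p under 0.05 by edgeR. At an unadjusted p under 0.05, 3 were higher in 5-Fu+BBR (Ascl2, Axin2 and Rnf43), against 9.48% of all genes. The FPKM of the groups separated for 4, all higher in 5-Fu+BBR, against 11.5% of all genes. For the 15 colon epithelium genes the sum was 6207, 5654 and 6754 FPKM in 5-Fu and 6379, 5939.6 and 6384 FPKM in 5-Fu+BBR, highest in 5-Fu library 3. The 10 lymphocyte genes summed to 17.2, 65.1 and 32.1 FPKM in 5-Fu and 81.5, 119 and 105 FPKM in 5-Fu+BBR and the 6 germinal centre genes to 2.78, 3.65 and 3.12 FPKM in 5-Fu and 4.2, 7 and 8.84 FPKM in 5-Fu+BBR, an order that differs from that of the members. Mef2b was at 0 in 5-Fu library 1, and the other 5 germinal centre genes were above 0 in all libraries.

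The 7 neutrophil genes summed to 464, 305 and 367 FPKM in 5-Fu and 347, 267 and 222 FPKM in 5-Fu+BBR, most of it Ly6g. Ly6g was at 371, 232 and 362 FPKM in 5-Fu and 325, 266 and 222 FPKM in 5-Fu+BBR. The sum thus mainly followed Ly6g and not the other genes of the list. The others were far lower and differed more between libraries, with S100a8 at 43.7, 42.3 and 3.02 FPKM in 5-Fu and 10.7, 0.311 and 0.155 FPKM in 5-Fu+BBR, and Retnlg at 6.32, 2.57 and 0.283 FPKM in 5-Fu and 0.398, 0 and 0 FPKM in 5-Fu+BBR. The list's library medians of log2 CPM relative to each gene's mean were 3.34, 2.37 and -0.28 in 5-Fu and 0.56, -2.96 and -3.13 in 5-Fu+BBR, lowest in library 3 of each group, as those of the members were. Gene by gene, library 3 was the lowest of both groups for 3 of the 7 (42.9%), ties at 0 not counted. That compares with 33 of 33 members and 18.6% of all genes. Csf3r was lowest in library 2 of each group, at 1.06, 0.554 and 0.657 FPKM in 5-Fu and 1.05, 0.605 and 0.657 FPKM in 5-Fu+BBR. Cxcr2 was at 0 in 5-Fu library 3, and Retnlg and Mmp8 in 5-Fu+BBR libraries 2 and 3. The 6 smooth muscle genes summed to 965, 797 and 721 FPKM in 5-Fu and 1329, 1612 and 1469 FPKM in 5-Fu+BBR and the 5 adipocyte genes to 5.42, 6.85 and 3.15 FPKM in 5-Fu and 16.7, 30 and 18.6 FPKM in 5-Fu+BBR. The 7 erythroid genes summed to 11.8, 25.5 and 4.62 FPKM in 5-Fu and 23.4, 73.8 and 163 FPKM in 5-Fu+BBR, lowest in 5-Fu library 3 and highest in 5-Fu+BBR library 3. Total counts were lowest in 5-Fu+BBR library 3, at 53824752, and 5-Fu library 3, at 53970545, with 5-Fu+BBR library 2 close to them at 54067678. The part of crypt cells, of neutrophils and other cell types and of depth in the members' levels was not tested.

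**Figure D5:**
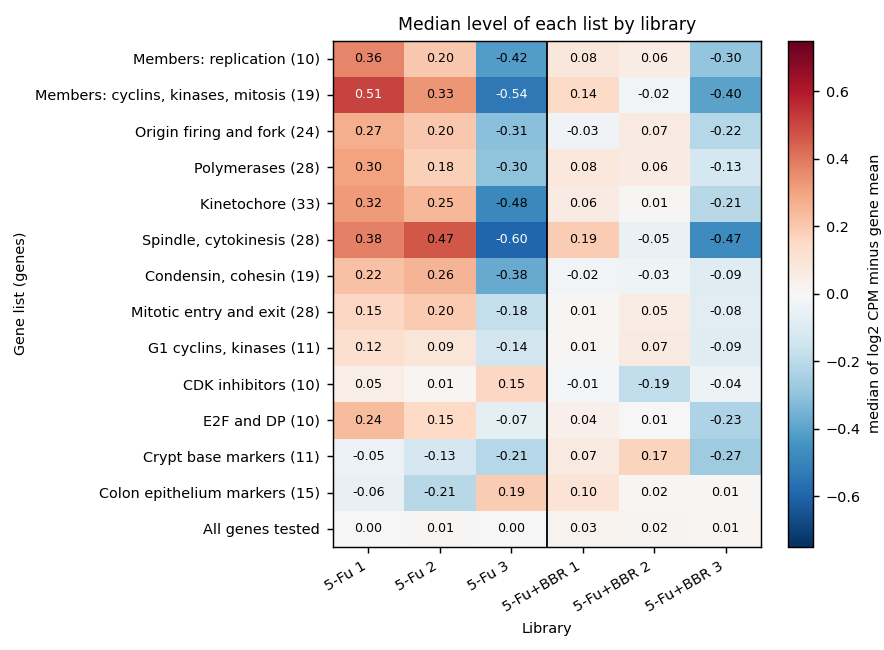
Median over each list of log2 CPM minus the gene's mean over the 6 libraries (colour and number), by library, with a line between 5-Fu and 5-Fu+BBR. The replication members, the mitosis members, and the kinetochore and spindle lists are lowest in 5-Fu library 3, between -0.42 and -0.60. The origin firing and polymerase lists are also lowest there, at -0.31 and -0.30, while the median of all genes tested stays within 0.026 of 0.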

How the data were processed

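RNA sequencing of colon tissue gave 6 libraries, 3 per group, grouped by the treatment label. Per the labels' protocols, polyadenylated RNA was made into strand-marked libraries with molecular identifiers. The submitters' processing notes name, without saying what each was used for, the build GRCm38, HISAT2 2.0.4, StringTie 1.3.4d, cutadapt 1.9, edgeR, DESeq2 and UMI-tools. An annotation version was not given in the sources used here. The authors deposited estimated counts, as whole numbers, and FPKM for 30777 genes. Among 2599 single-transcript genes, 93.6% to 93.8% had a deposited count that lay no more than 2% from FPKM times the GENCODE M21 transcript length times a constant of the library, the relation that counts computed from coverage would have, and low counts may then look more precise than they are.

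Counts were used as deposited. They were filtered with filterByExpr (20101 genes left), scaled with TMM and tested two-sided by robust quasi-likelihood F tests (edgeR 4.0.16, R 4.3.3), with no covariates and Benjamini-Hochberg adjustment over all genes tested (biological coefficient of variation 0.296). The steps were tested on simulated data. Chi-square values per gene between libraries were 73.9 to 211, so no pair agreed within sampling noise. Library medians use log2 CPM with a prior count of 2. Promoters are RefSeq windows of GRCm38.p6, searched by letters, and gene positions are those of the deposited table. Figures were drawn with matplotlib 3.10.9 (Python 3.11.15, pandas 2.3.3). The members were given by name, and members, lists and tests were chosen with earlier results of these data known. All members are named. In each other list the genes that passed, or otherwise the 2 of smallest p, are named, except that the second of the spindle list is not reported here. Alternatives were leaving out each library, DESeq2 1.42.0, its size factors in edgeR, limma-voom (limma 3.58.1), limma on log2(FPKM + 1) where at least 3 samples reached 1 FPKM, counts divided by 4, a minimum of 50 counts in 3 samples, no filter, the replicate number as a block, and 5-Fu+BBR library 1 alone against 5-Fu.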

Additional observations from a re-analysis of the deposited data

How the results depend on the processing

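For the members, 0 passed at an adjusted p under 0.05 under every alternative run. The number lower at an unadjusted p under 0.05 was 2 with the replicate block (Ccnb1 and Cdc20, where 6.05% of all genes were lower) and 0 to 18 without each library in turn, and 0 under the others. Over all genes, the number past an adjusted p under 0.05 was 12 higher and 3 lower. It was 91 and 22 with the replicate block, 64 and 13 with no filter, 844 and 275 with DESeq2, 0 to 145 and 0 to 15 without each library, and 0 and 0 for 5-Fu+BBR library 1 alone. At an unadjusted p under 0.05, 1905 genes were higher and 1223 lower. These were 1180 to 2203 and 641 to 1533 without each library, 775 and 556 for 5-Fu+BBR library 1 alone, and 1183 higher with limma on log2 FPKM, where fewer genes were tested. The median over members kept its sign throughout, between -0.40 and -0.0036. The cause was not tested for the other changes.

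Mki67, at 0.0028, was at -0.0058 with no filter, -0.0079 with DESeq2 size factors and -0.0099 with DESeq2. For 5-Fu+BBR library 1 alone the sign changed for Mcm2 (0.041), Mcm5 (0.13), Ccnb2 (0.057), Plk1 (0.27), Aurkb (0.080), Ube2c (0.25), Kif20a (0.16), Tpx2 (0.20), Nusap1 (0.23), Cenpf (0.047). Without each library in turn the sign changed at least once for the following, given with their ranges: Bub1 -0.52 to 0.065, Ccnb2 -0.39 to 0.12, Ccne1 -0.33 to 0.050, Cenpf -0.37 to 0.12, Gins2 -0.015 to 0.54, Kif20a -0.40 to 0.10, Mcm2 -0.23 to 0.054, Mcm3 -0.36 to 0.060, Mcm5 -0.23 to 0.15, Mcm6 -0.37 to 0.16, Mki67 -0.23 to 0.17, Nusap1 -0.38 to 0.052, Plk1 -0.22 to 0.11, Tpx2 -0.40 to 0.054, Ube2c -0.28 to 0.21. None of these estimates passed at an adjusted p under 0.05. Deviations of same-numbered libraries from their group means correlated at r = 0.058, 0.024 and 0.12 over genes. 5-Fu libraries 1 and 3 each correlated best with the 5-Fu+BBR library of their own number. 5-Fu library 2 correlated best with 5-Fu+BBR library 1 (r = 0.10). Whether the numbers mark pairs was not tested. The main test took no pairs, and the replicate block is given for comparison only. With 3 libraries per group and the spread of 5-Fu, the intervals limit what could be called.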
